A study of Mus musculus with 3 samples.

Results

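Small nucleolar RNAs (snoRNAs) leave fragments in small RNA libraries, and 81 mouse snoRNA and scaRNA genes with such fragments are described here in liver. A fragment was an insert (the sequenced RNA between the adapters) of at least 18 nt that matched an annotated snoRNA or scaRNA transcript exactly and on the same strand, and that matched no miRNA precursor. Of 1558 annotated genes, 320 had at least 1 such insert. Genes that shared most of their reads were merged, which left 226 gene entries, and the 81 entries with at least 20 reads over the 3 libraries (112 genes) are the members. The other 145 entries held 816 reads together. Snord100 and Snord47, with 20 reads each, lay just inside this minimum, and Snord45c and Snord73a, with 19 reads each, just outside.

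The libraries came from liver of C57BL/6 mice, an inbred strain, 4 weeks after they were injected with scAAV9, an adeno-associated virus vector of serotype 9 with a self-complementary genome. In the mock group (scAAV9-Mock) the vector carried no decoy. The other groups received scAAV9-TuD-miR-122 or scAAV9-TuD-let-7, whose Tough Decoy (TuD) is an expressed hairpin RNA that binds its target miRNA. All 3 groups therefore carried the same vector type, and no uninjected liver is compared here. Each group had 1 library. The number and age of the animals, and the promoter of the decoy, are not stated in the sources used here.

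snoRNAs guide the chemical modification of other RNAs, mainly ribosomal RNA, as part of protein complexes in the nucleolus. Box C/D snoRNAs carry a C box near the 5′ end and a D box (core letters CTGA) near the 3′ end, with further copies called C′ and D′ inside, and they direct 2′-O-methylation. Box H/ACA snoRNAs form hairpins, end with an ACA motif shortly before the 3′ end and direct pseudouridylation, while scaRNAs act in Cajal bodies on spliceosomal RNAs. Most are cut from introns of host genes, among them ribosomal protein genes and long non-coding RNAs such as Gas5 and Snhg1. A few, such as U3 (Rnu3b1 and its copies) and U8 (Snord118), take part in cutting the ribosomal RNA precursor. Short stable fragments of snoRNAs are known from many tissues.

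The sequences of the most frequent inserts of the most abundant genes are shown first, because their 3′ ends line up. Each reads 5′ to 3′ with the letters CTGA nearest its 3′ end in capitals, written as DNA.
Gm25789: ttacttgatgatagtaaaagatCTGAtg
Gm24452: tgcaatgatgtcatcttactaCTGAaa
Snord85: ggtcgatgatgagagctttgttCTGAgc
Snord2: ctgaaatgaagagaatactcttgCTGAtc
Rnu3b1: ccacgaggacgagacgtagcg
Gm26224: gcttgttgatgaataccaacgattCTGAtg
Snord104: ccgggtgatgcgaatcgtaatCTGAgc
Snord118: gaaaatgatgattggagcttgcatgatc
In 6 of these 8 genes the fragment stopped exactly 2 nt after CTGA, and the inserts of Rnu3b1 and Snord118 held no CTGA. The fragment of Gm25789, for example, covered bases 44 to 71 of a snoRNA of 76 nt.

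Of the 4 most abundant snoRNAs, 3 are shown whole, with the most frequent fragment in capitals. Sequences and positions are those of GENCODE M21 on mouse build GRCm38. Gm25789 lies at chr1:161038308-161038383 on the plus strand, within an exon of an annotated Gas5 transcript. Gm24452 lies at chr19:8724531-8724602 on the plus strand, within an exon of an Snhg1 transcript. Snord2 lies at chr16:23108953-23109021 on the plus strand within Eif4a2, which encodes a translation initiation factor, in an exon of an annotated transcript.
Gm25789: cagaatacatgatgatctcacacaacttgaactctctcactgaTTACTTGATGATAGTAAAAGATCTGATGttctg
Gm24452: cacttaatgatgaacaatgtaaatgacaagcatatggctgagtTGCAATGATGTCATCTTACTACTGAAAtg
Snord2: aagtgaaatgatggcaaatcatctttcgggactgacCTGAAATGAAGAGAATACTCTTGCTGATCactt
Each fragment took the 3′ part of its snoRNA up to the D box and left off the last bases, 5 in Gm25789, 2 in Gm24452 and 4 in Snord2. In these 3 a further CTGA lies directly or almost directly before the start of the fragment. This does not hold for all 4: Snord85, which is not shown whole, has no CTGA before its fragment.

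The libraries held 3450317 reads in mock, 3681585 with TuD-miR-122 and 2066892 with TuD-let-7. Levels are given in RPM, the reads per 1000000 reads of the library, so that 1 read stood for 0.290, 0.272 and 0.484 RPM in that order, and 3 reads, the limit that a count of 0 allows, for 0.869, 0.815 and 1.45 RPM. Intervals in this text are exact 95% intervals. They cover counting error only, and PCR copies count as separate reads because the files carry no molecular identifiers. With 1 library per group there is no test of a difference between groups, and libraries rather than conditions are compared. Marker miRNAs of other tissues also differed between the libraries: the 5 skeletal muscle miRNA genes summed to 3089 RPM in mock, 306 with TuD-miR-122 and 39.7 with TuD-let-7, and the 4 pancreas miRNA genes to 46.1, 632 and 30.5 RPM. The 3 liver miRNA genes were abundant in every library, at 36977, 31172 and 23992 RPM, and the 2 erythroid miRNA genes stood at 13109, 17898 and 6935 RPM. All members of these lists had reads in every library. The part of other tissues in the values below was not tested, and in bulk RNA fewer cells of a type and less RNA per cell cannot be told apart.

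snoRNA fragments made up a small share of each library, highest in mock and lowest in TuD-let-7. They numbered 18126 reads in mock (0.525% of all reads, interval 0.518 to 0.533), 16515 with TuD-miR-122 (0.449%, 0.442 to 0.455) and 6297 with TuD-let-7 (0.305%, 0.297 to 0.312). This corresponds to 5253, 4486 and 3047 RPM. The ratio to mock was 0.854 (0.836 to 0.872) for TuD-miR-122 and 0.580 (0.563 to 0.597) for TuD-let-7. The direction for TuD-let-7 depended on the scale: miRNA reads from neither target made up 33.4% of the mock library, 33.6% for TuD-miR-122 and 18.7% for TuD-let-7. Scaled to those miRNA reads, the ratio was 0.849 (0.831 to 0.867) for TuD-miR-122 and 1.03 (1.004 to 1.06) for TuD-let-7. Every TuD-let-7 ratio to mock shifts by 0.83 on the log2 scale between these 2 scales, and those for TuD-miR-122 by -0.01.

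A few genes supplied most of the fragments. The 4 most abundant members held 69.9% of all snoRNA-derived reads and the 12 most abundant 86.3%. Counts spanned from 10420 reads to the minimum of 20, and 55 of the 81 members had fewer than 100 reads. All but 1 of the 81 members had reads in each library, the exception being AF357341 with none in TuD-let-7.

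Gm25789, from the Gas5 host gene, was the most abundant, with 1256 RPM in mock, 1163 with TuD-miR-122 and 872 with TuD-let-7. Gm24452, from Snhg1, stood at 1018, 723 and 334 RPM. Snord85 stood at 816, 689 and 553 RPM and Snord2 at 640, 515 and 363 RPM. The order of these 4 was the same in mock and TuD-miR-122, whereas in TuD-let-7 Gm24452 came below both Snord85 and Snord2. U3 (Rnu3b1), whose reads were pooled over 18 near-identical genes, came next with 185, 196 and 164 RPM. Its ratio to mock was 1.06 (0.948 to 1.18) with TuD-miR-122 and 0.888 (0.776 to 1.01) with TuD-let-7, the nearest to 1 of these 5 genes on the scale of all reads. On the scale of the miRNA reads from neither target, the TuD-let-7 ratio of U3 was 1.58 (1.38 to 1.81) and that of Snord2 was the nearest to 1, at 1.01 (0.930 to 1.10).

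The next 7 members lay below the 4 most abundant. Gm26224, another Gas5 snoRNA, had 189 RPM in mock, 137 with TuD-miR-122 and 90.0 with TuD-let-7. Snord104, which overlaps no host gene in the annotation, had 108, 83.7 and 72.1 RPM, and U8 (Snord118), needed for processing of the large ribosomal subunit RNAs, had 86.4, 61.4 and 61.9 RPM. Gm26109, in an intron of the mitochondrial chaperone gene Hspa9, had 90.1, 70.6 and 34.8 RPM. These 4 were all highest in mock on the scale of all reads. Snord57, from Nop56, whose product is itself a core protein of box C/D complexes, had 75.1, 66.0 and 54.7 RPM. Snord4a, from an intron of the ribosomal protein gene Rpl23a, had 75.6, 56.5 and 33.9 RPM. Gm22680, from Snhg1, had 49.3, 38.6 and 26.1 RPM, and like the other 6 it was highest in mock on the scale of all reads. On the scale of the miRNA reads from neither target, Snord104, Snord118 and Snord57 were instead highest in TuD-let-7.

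**Figure D1:**
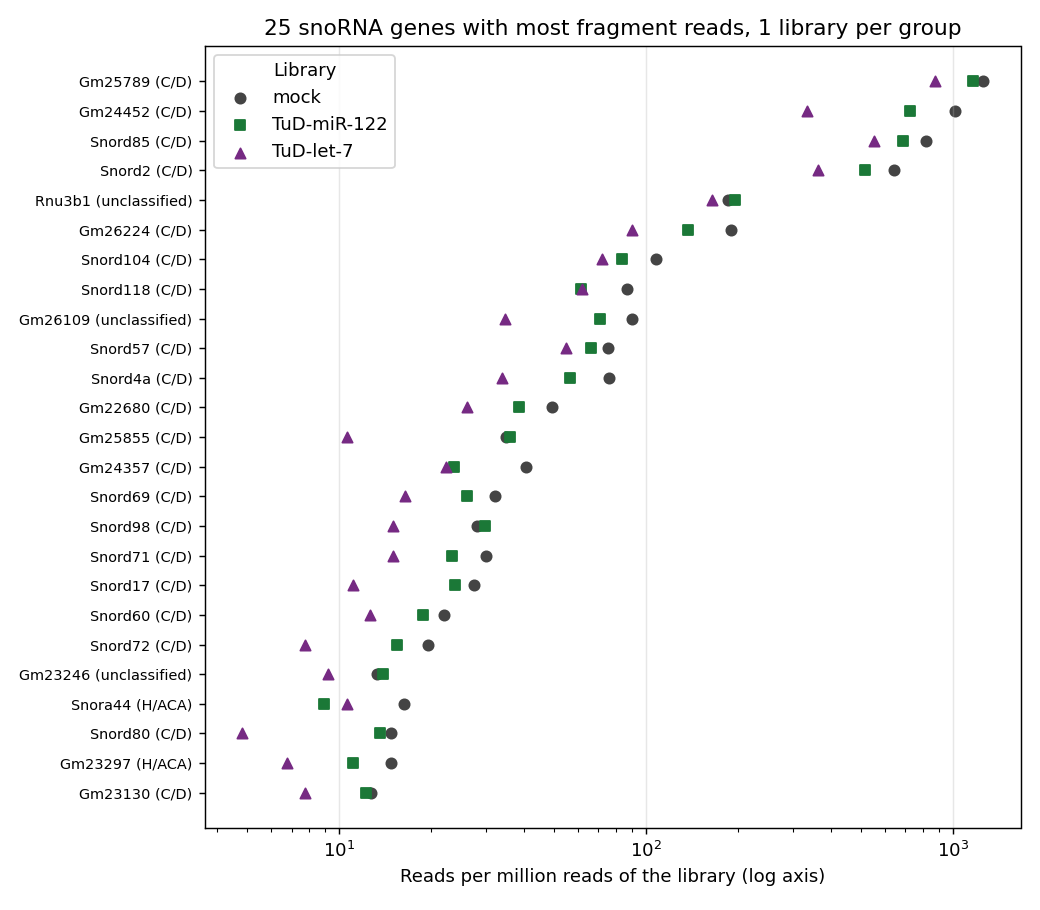
Levels in RPM (log axis) of the 25 snoRNA genes with most fragment reads, with box type in brackets; each point is 1 library (circles mock, squares TuD-miR-122, triangles TuD-let-7). Levels run from 1256 RPM for Gm25789 in mock to 4.84 RPM for Snord80 in TuD-let-7, and for most genes the TuD-let-7 point lies furthest left.

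Of the 81 members, 76 lay inside another annotated gene and 5 did not. The whole snoRNA lay in an exon of an annotated host transcript for 43 members and only in an intron for 33. Gas5 held 9 members with 29.6% of the reads, Snhg1 held 7 with 19.0% and Eif4a2 held 1 with 11.9%. Genes for ribosomal proteins (symbols starting with Rpl or Rps) hosted 17 members. Because annotated host transcripts that keep the snoRNA contain the same letters, 67.1% of the reads also matched a transcript of another type, while 10 reads matched a gene at another locus. This search covered annotated GENCODE transcripts only, in which nuclear tRNAs have no type of their own, and not the genome.

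Fragments of box C/D snoRNAs dominated. Box type came from the symbol (Snord, Snora, Scarna) for 45 members. For the other 36 it came from the annotated type scaRNA (Gm25395) or, failing that, from the letters. C/D needed ATGATGA or GTGATGA in the first 20 nt and CTGA in the last 15 nt. H/ACA needed a length of at least 100 nt with ACA starting 4 to 8 nt before the 3′ end. By this rule 60 members were C/D, 5 H/ACA, 2 scaRNA and 14 unclassified. C/D genes held 91.6% of the reads in mock (interval 91.2 to 92.0), 89.8% with TuD-miR-122 (89.3 to 90.3) and 89.7% with TuD-let-7 (88.9 to 90.4). H/ACA genes held 1.56%, 1.51% and 1.73%, and scaRNA genes 0.254%, 0.406% and 0.286%. The unclassified share was 6.59%, 8.28% and 8.32%. U3, which is a box C/D RNA with unusual boxes, supplied 55.1% of the unclassified reads, and 12 of the 14 unclassified members had CTGA in their last 15 nt.

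**Figure D2:**
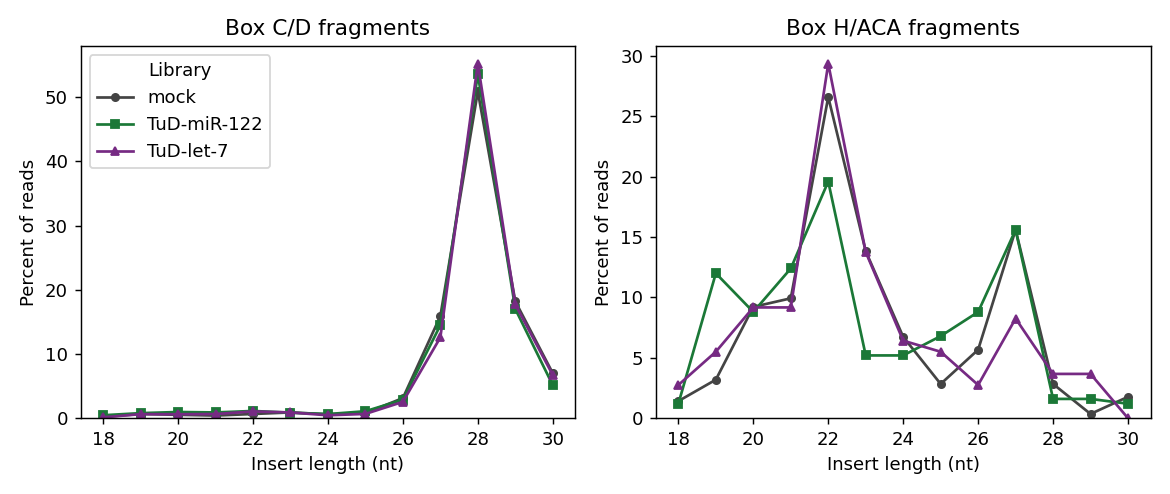
Percent of reads at each insert length (18 to 30 nt) for box C/D genes (left) and box H/ACA genes (right), 1 line per library. C/D reads peak at 28 nt in each library, while H/ACA reads peak at 22 nt with a smaller group at 27 nt.

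C/D and H/ACA fragments differed in length. C/D reads had a median of 28 nt in each library, and 85.0% of them in mock, 85.1% with TuD-miR-122 and 85.6% with TuD-let-7 were 27 to 29 nt long. H/ACA reads had a median of 22 nt in each library, and 70.9%, 64.4% and 76.1% of them were 18 to 24 nt long, against 4.01%, 5.78% and 4.48% of C/D reads. The separation was larger than the counting intervals, which for the share of 18 to 24 nt did not overlap between C/D and H/ACA in any library. No insert in the files was longer than 30 nt, the upper end of the gel selection, so longer fragments could not be seen. The C/D peak rested on abundant genes: 41 of 60 C/D members had a median length of at least 26 nt, and 16 had one under 24 nt. With each member weighted equally, 27 to 29 nt inserts made up 47.5% of C/D reads. The lowest of the short medians was 19.5 nt, in Snord11, which was picked after its values were seen.

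Most C/D fragments came from the 3′ end of the snoRNA. Reads ending within 5 nt of the annotated 3′ end made up 85.1% of C/D reads in mock (interval 84.6 to 85.7), 84.6% with TuD-miR-122 (84.0 to 85.2) and 84.5% with TuD-let-7 (83.5 to 85.4). Reads starting within 5 nt of the 5′ end made up 3.99%, 4.69% and 4.75%, and the rest were internal. The 3 libraries thus differed by less than 1 percentage point in the 3′ end share. By member, 33 of 60 C/D genes had most reads at the 3′ end, 13 at the 5′ end and 12 inside, and 2 had no place with most reads. Weighted equally, C/D members had a 3′ end share of 53.6%. The share depended on the window: within 2 nt of it the share was 22.7% and within 10 nt 90.7%, since abundant fragments such as that of Gm25789 stopped 5 nt before it.

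**Figure D3:**
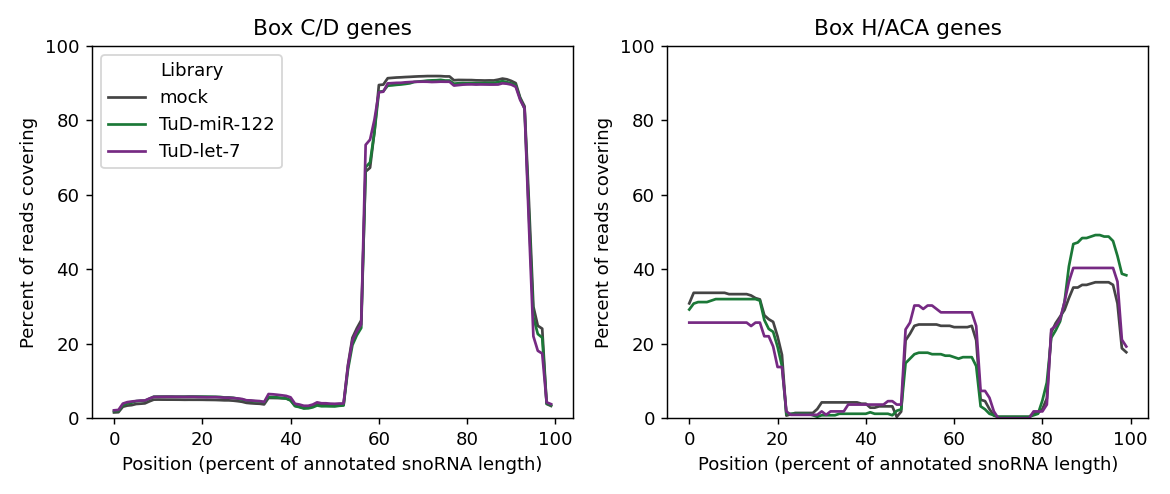
Percent of reads covering each position along the annotated snoRNA (0 is the 5′ end, 100 the 3′ end) for box C/D genes (left) and H/ACA genes (right), 1 line per library. In C/D genes about 90% of reads cover the stretch from 60% to 90% of the length, while H/ACA reads form 3 separate blocks near the start, the middle and the end.

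Measured from the D box letters, most C/D fragments ended at 1 distance. Of 37066 C/D reads, 30590 ended exactly 2 nt after their last CTGA (82.5%, interval 82.1 to 82.9), namely 82.8% in mock, 82.4% with TuD-miR-122 and 82.1% with TuD-let-7. Ends 1 nt after CTGA held 5.18% of the reads, ends 4 nt after it 2.95%, and 4.12% had no CTGA. For comparison, 3.73% of all windows of 28 nt along the C/D members, and 1.36% of those along all annotated snoRNA and scaRNA transcripts, have their last CTGA 2 nt before the end (same strand). Among reads of C/D members the share was 83.1%. CTGA anywhere was present in 96.2% of these reads and 53.3% of the member windows, and TGATG, the letters of the C and C′ boxes, in 77.5% and 26.2%. A window that reaches the 3′ end of a C/D snoRNA holds its D box by construction, so these shares describe where the fragments lie.

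**Figure D4:**
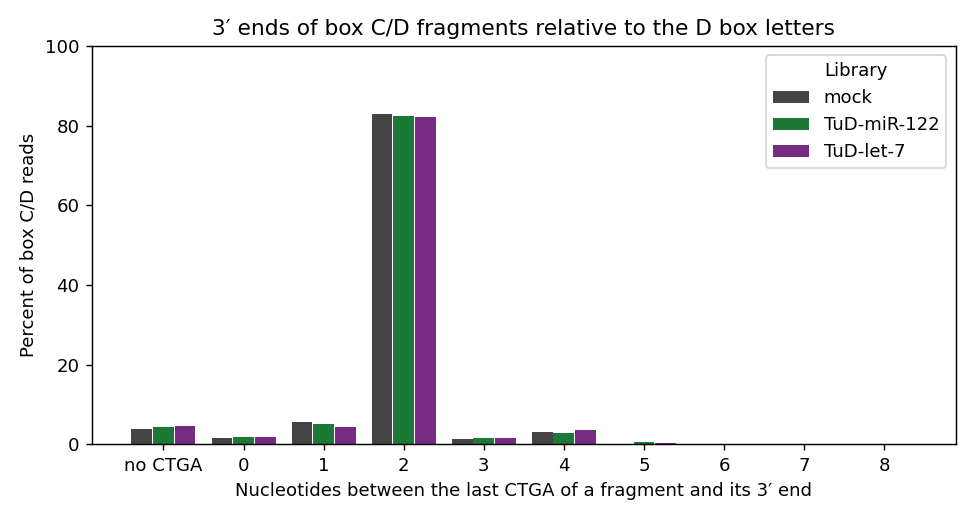
Percent of box C/D reads by the number of nucleotides between the last CTGA of the fragment and its 3′ end, for each library; reads without CTGA are at the left. Bars at 2 nt reach 82.8%, 82.4% and 82.1%, and no other class exceeds 6%.

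This pattern held for many C/D members beyond the abundant ones. The most frequent insert ended 2 nt after CTGA in 41 of 60 C/D members, and over 50% of the reads did in 36. The median member had 73.5% of its reads there, and without the 4 most abundant members the pooled share was 69.4%. With each member weighted equally it was 58.8%. No H/ACA member had a read ending 2 nt after CTGA. Over all H/ACA entries, however, 627 of 641 reads held no CTGA and could not have such an end.

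The 3′ ends of fragments were also more uniform than their 5′ ends. In the median C/D member the most frequent last base was shared by 71.7% of reads and the most frequent first base by 51.8%. The last base was the more uniform in 36 members and the first base in 22. Over all 81 members, of every box type, the most frequent insert held between 8.16% and 85.4% of a member's reads, with a median of 40.3%. Gm24452 shows the loose 5′ end: its 2 most frequent inserts, of 3118 and 2433 reads, differed by 1 base at the start and ended at the same base. Of 12 members with at least 50 reads in each library, 9 had the same most frequent insert in all 3. Its share of the reads still differed between libraries: for 6 of the 12 (Gm25789, Snord2, Rnu3b1, Gm26224, Snord104 and Snord4a) the intervals of at least 2 libraries did not overlap. For Gm25789 the insert held 84.1% of the reads in mock, 86.4% with TuD-miR-122 and 86.0% with TuD-let-7, whereas for Gm26224 it held 58.4%, 40.1% and 50.5%, and for Snord104 56.6%, 48.4% and 71.1%.

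Some C/D snoRNAs instead gave fragments that stopped after an internal CTGA, mostly in the 5′ part. A CTGA was called terminal when it was the last of the snoRNA and began within its last 15 nt. The terminal CTGA preceded the end (by up to 6 nt) in 91.0% of C/D reads in mock, 90.3% with TuD-miR-122 and 89.8% with TuD-let-7, and an internal CTGA in 3.52%, 3.78% and 3.97%. By member, 39 C/D genes mostly used the terminal CTGA, 8 an internal one and 13 neither. By this definition the 8 genes with mostly internal use were Snord57, Snord69, Gm23212, Snord21, Snord91a, Gm25506, Snord11 and Gm25744. Of their reads, 75.6% (Snord21) to 98.7% (Snord57) ended so. In Snord91a the most frequent insert lay at bases 55 to 82 of 93, in the 3′ part. Its CTGA is the last of that snoRNA and counted as internal only because it begins before the last 15 nt. In the other 7 genes the most frequent insert started at bases 1 to 7. Except for Snord57 and Gm23212, these 8 genes were singled out after their values were seen. Snord60, which lies within Rab26os and was picked in the same way, gave both kinds, with 64.9% of reads after the terminal and 33.3% after an internal CTGA. The most frequent insert ended 2 nt after the internal CTGA in 7 of the 8 and directly at it in Snord11. Inserts of the 4 most abundant of the 8 and of Snord60 are shown for this spacing, which varied within genes: in Snord69, 43.2% of the reads ended 2 nt after CTGA, and its next insert, with 76 reads against 79, ended at CTGA itself.
Snord57: ggaaaggatgaacgaacttggcCTGAcc
Snord69: aagcagtgatgacagattggatCTGAct
Gm23212: ctgcatgatgacgaacaaataCTGAct
Snord21: gccaatgatgacaccacactaaCTGAgc
Snord60, 5′ fragment: agcccgtgatgaattaatttCTGAca
Snord60, 3′ fragment: tagtctgattacattataagaCTGAgg
The fragment of Snord57 covered bases 2 to 29 of 72, and that of Snord21 bases 1 to 28 of 94. The 5′ fragments of Snord69, Gm23212, Snord21 and Snord60 also hold the C box letters TGATG.

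U3 and U8 did not follow the D box pattern. The main U3 fragment was 21 nt long and internal, starting at base 76 of 216. Reads starting within 3 nt of that base made up 49.9% of U3 reads in mock (interval 46.0 to 53.9), 61.4% with TuD-miR-122 (57.7 to 65.0) and 50.6% with TuD-let-7 (45.1 to 56.0). Reads from the U3 3′ end made up 45.7%, 33.9% and 47.4%. The internal share was thus highest in TuD-miR-122, with an interval that did not overlap those of the other libraries. Over the 3 libraries, 41.0% of U3 reads ended within 6 nt after its terminal CTGA, while 0.0589% ended exactly 2 nt after a CTGA. In U8 (Snord118), 80.4% of the reads were 1 internal insert of 28 nt, covering bases 48 to 75 of 135, and 98.6% of its reads had no CTGA within 6 nt of the end.

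H/ACA fragments were few and their pooled coverage formed 3 blocks, to which single genes gave much. Over the 5 H/ACA members and the H/ACA entries below the minimum, 35.8% of the mock reads lay at the 3′ end, 33.7% at the 5′ end and 30.5% inside; in TuD-miR-122 the shares were 47.6%, 31.2% and 21.2%, and in TuD-let-7 40.4%, 25.7% and 33.9%. These rest on 282, 250 and 109 reads, and for each place the intervals of the libraries overlap. Over the 3 libraries there were 176 internal and 201 5′ end reads, many of them from a single gene. Snora44 had 111 reads, 93.7% of them internal, and Gm23297 had 106, 96.2% of them at the 5′ end. The 3 most abundant members had their most frequent insert at 3 different places, and those inserts are shown for that reason.
Snora44: atggagagactttgacagctca
Gm23297: cagcactgttcgtaacctgtcagcctt
Snora7a: tgattggaagacactctgcaaca
Snora44, from Snhg12, had 56 reads in mock, 33 with TuD-miR-122 and 22 with TuD-let-7, and its insert of 22 nt covered bases 64 to 85 of 129, in the middle. Gm23297, in an intron of Nap1l4, which encodes a histone chaperone-like protein, had 51, 41 and 14 reads, and its insert was the first 27 nt. Snora7a, from the ribosomal protein gene Rpl32, had 36, 14 and 19 reads, and its insert of 23 nt ended at base 137 of 140. Snora7a had the lowest ratio of all members compared in TuD-miR-122, at 0.364 (0.182 to 0.692).

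The scaRNA members were Scarna6 and Gm25395, both in introns of the autophagy gene Atg16l1. Scarna6 had 12 reads in mock, 24 with TuD-miR-122 and 6 with TuD-let-7, and Gm25395 had 15, 18 and 6. Both have letters of box C/D snoRNAs, and 47.6% of the Scarna6 reads and 46.2% of the Gm25395 reads ended 2 nt after CTGA. All 16 scaRNA entries with reads together had 46, 67 and 18 reads, a ratio to mock of 1.37 (0.924 to 2.03) with TuD-miR-122 and 0.653 (0.356 to 1.15) with TuD-let-7, the latter being 1.16 (0.635 to 2.05) on the scale of the miRNA reads from neither target. Each of these intervals includes 1, so a difference was not detectable at this depth.

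Few snoRNAs stood beyond 2-fold of mock. To be counted, a member needed 50 or more reads in the compared libraries together and a whole interval above 2 or below 0.5. For TuD-miR-122, 38 members could be compared. Of these, 1 was higher (2.63%) and 0 were lower, against 12.8% higher and 3.98% lower among 226 miRNA precursor groups other than miR-122 and let-7 treated the same way. For TuD-let-7, 29 members could be compared. There 0 were higher and 2 were lower (6.9%), against 1.51% higher and 20.1% lower among 199 miRNA precursor groups. Both comparisons share the mock library. The counted share also depends on depth, because a whole interval must lie beyond 2-fold. Mock held 1152253 miRNA reads from neither target against 18126 snoRNA-derived reads, so the snoRNA and miRNA shares are not matched for depth. Scaled to the miRNA reads from neither target, the TuD-let-7 count of lower members was 0 and the TuD-miR-122 count of higher members 1. The miRNA precursor groups had 4.02% higher and 3.52% lower with TuD-let-7 on that scale.

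The member ratios spread around a median below 1 in both decoy libraries on the scale of all reads. The median ratio to mock over the 38 members in TuD-miR-122 was 0.874, with 28 below 1 and 10 above, and the middle of the distribution (quartiles) ran from 0.777 to 1.01. The interval lay below 1 for 13 members and above 1 for 1. In TuD-let-7 the quartiles over 29 members ran from 0.417 to 0.679, on the scale of all reads. The median there was 0.533 and all 29 were below 1, 23 of them with the whole interval. On the scale of the miRNA reads from neither target that median was 0.951, with 16 members below 1 and 13 above. The miRNA precursor groups had medians of 1.04 and 0.577 on the scale of all reads, above the snoRNA medians of both libraries.

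**Figure D5:**
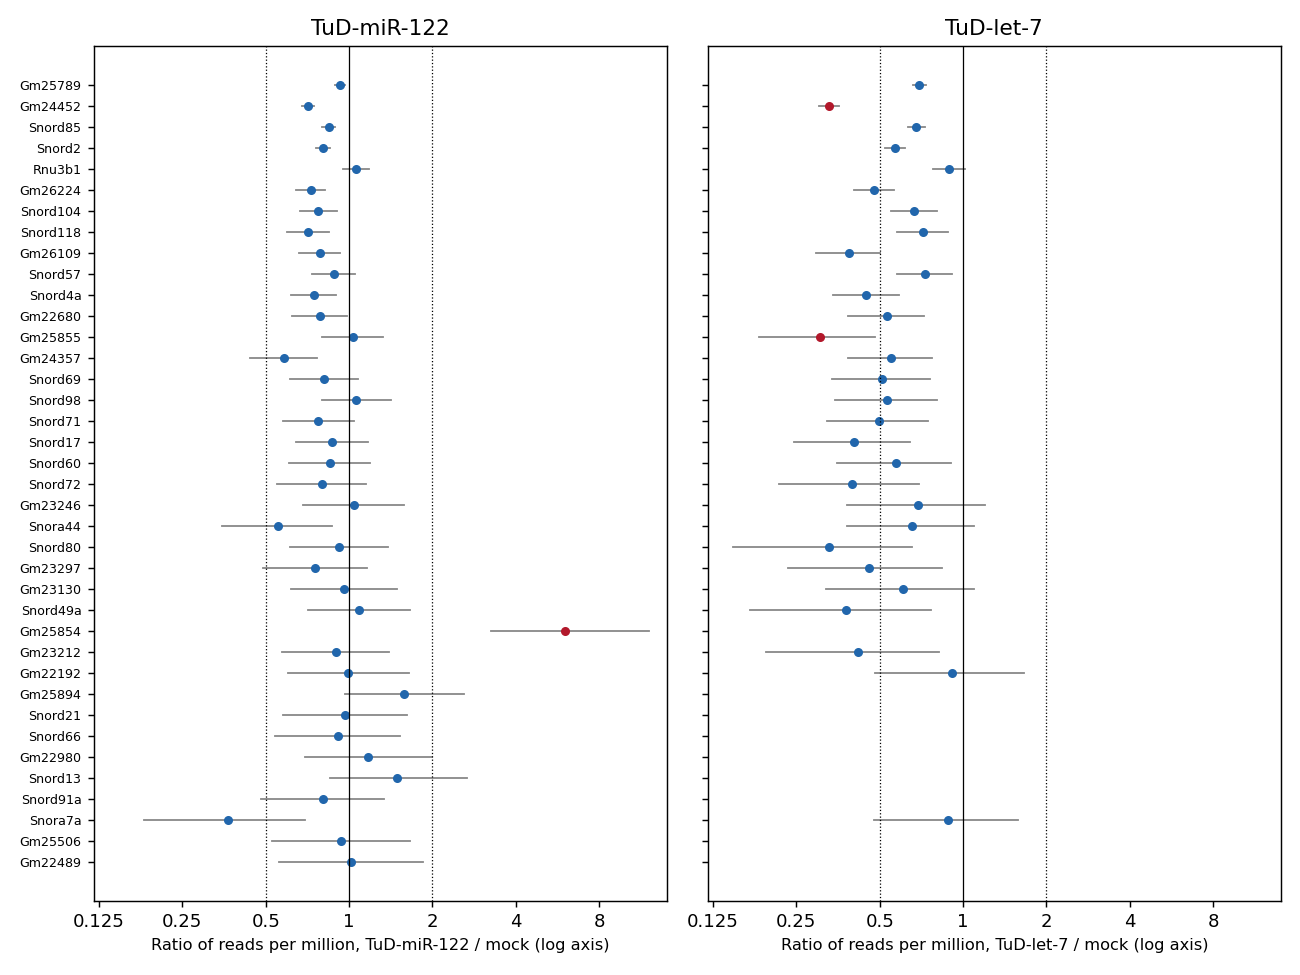
Ratio of RPM to mock with its 95% counting interval (log axis) for each member with at least 50 reads over both libraries, TuD-miR-122 left and TuD-let-7 right; solid lines mark 1 and dotted lines 0.5 and 2. Red points, whose interval lies beyond 2-fold, are Gm25854 (6.01) on the left and Gm24452 (0.328) and Gm25855 (0.304) on the right, and all TuD-let-7 points lie below 1 on this scale of all reads (16 of 29 on the scale of the miRNA reads from neither target).

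Gm24452 and Gm25855, both from Snhg1, were the members lower in TuD-let-7. Gm24452 had 3512 reads in mock and 690 in TuD-let-7, a ratio of 0.328 (0.302 to 0.356). Gm25855 had 121 and 22 reads, a ratio of 0.304 (0.183 to 0.481), whereas its 133 reads in TuD-miR-122 gave a ratio of 1.03 (0.799 to 1.33). On the scale of the miRNA reads from neither target the TuD-let-7 ratios were 0.584 (0.538 to 0.634) and 0.541 (0.327 to 0.857), below 1 but not past 2-fold. Relative to all snoRNA-derived reads they were 0.566 (0.520 to 0.614) and 0.523 (0.316 to 0.829). On each of these scales both lay below the ratio of the summed snoRNA-derived reads.

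The lists of snoRNAs by host or role gave the following sums. Beside them, the median ratio over all entries with at least 20 reads was 0.937 with TuD-miR-122 (74 entries) and 0.596 with TuD-let-7 (51 entries). The 9 Gas5 entries with reads, all members, held 28.4% of the snoRNA-derived reads in mock, 30.0% with TuD-miR-122 and 32.3% with TuD-let-7. Their summed ratio to mock was 0.904 (0.869 to 0.940) and 0.660 (0.627 to 0.695), while on the scale of the miRNA reads from neither target the TuD-let-7 ratio was 1.18 (1.12 to 1.24). The medians on the scale of all reads were 0.926 over 7 entries and 0.447 over 6. The sum follows Gm25789, whose TuD-let-7 ratio was 0.694 (0.657 to 0.734). Snord80, with 51, 50 and 10 reads, had a lower one of 0.327 (0.148 to 0.652), and Gm23212, with 44, 42 and 11 reads, had one whose interval overlapped that of Gm25789.

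The 8 Snhg1 entries, 7 of them members, held 21.5%, 18.7% and 12.8% of the reads in the same order. Their summed ratio was 0.743 (0.708 to 0.779) with TuD-miR-122 and 0.345 (0.319 to 0.372) with TuD-let-7, set largely by Gm24452; on the scale of the miRNA reads from neither target the TuD-let-7 ratio was 0.614 (0.568 to 0.663). The medians on the scale of all reads were 1.04 over 7 entries and 0.530 over 5, so with TuD-miR-122 sum and median lay on different sides of 1. Without Gm24452, on the scale of all reads, the ratios were 1.04 (0.901 to 1.19) and 0.495 (0.398 to 0.611). Gm23246, an Snhg1 member with 46, 51 and 19 reads, had a TuD-let-7 ratio of 0.690 (0.382 to 1.20), an interval that did not overlap that of Gm24452.

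The rRNA processing snoRNAs (U3, U8, Snord13, Snord14, Snord22 and Snora73) summed to 981 reads in mock, 1039 with TuD-miR-122 and 502 with TuD-let-7. The ratio to mock was 0.993 (0.909 to 1.08) and 0.854 (0.766 to 0.952), led by U3, and the latter was 1.52 (1.36 to 1.70) on the scale of the miRNA reads from neither target. The medians on the scale of all reads were 1.49 over 5 entries and 0.888 over 3, so with TuD-miR-122 the median lay above 1 and the sum, which U3 sets, just below. Snord13, which guides acetylation of the small subunit rRNA, had 22, 35 and 15 reads, and Snord22 had 9, 31 and 9. Both were highest in TuD-miR-122 also when scaled to all reads. Snord13 stood at 6.38, 9.51 and 7.26 RPM and Snord22 at 2.61, 8.42 and 4.35 RPM. On the scale of all reads, the Snord13 ratio to mock there was 1.49 (0.850 to 2.67), an interval that includes 1. Its TuD-let-7 ratio was 1.14 (0.549 to 2.30), from fewer than the 50 reads needed for a comparison, so it was not counted. That ratio shifts by 0.83 in log2 on the scale of the miRNA reads from neither target, so its highest library depends on the scale. Snord22 had fewer than the 50 reads needed for a comparison with mock. From Rpl13a, Snord33 was the only member, with 16, 12 and 2 reads, and the 4 Rpl13a entries summed to 29, 26 and 4.

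snoRNAs of the imprinted Dlk1-Dio3 region stood apart in TuD-miR-122. This region on chromosome 12 (chr12:109452823-110281097 here) encodes clusters of maternally expressed snoRNAs and miRNAs that are usually low in adult liver. Of its 23 annotated snoRNA genes 7 had reads, in all 15 in mock, 118 with TuD-miR-122 and 11 with TuD-let-7. The ratio to mock was 7.37 (4.29 to 13.6) with TuD-miR-122 and 1.22 (0.509 to 2.85) with TuD-let-7, or 2.18 (0.906 to 5.08) on the scale of the miRNA reads from neither target. Gm25854 (chr12:109686798-109686869, plus strand) had 12, 77 and 9 reads, a ratio of 6.01 (3.25 to 12.1) in TuD-miR-122, and was the 1 member counted as higher there. AF357341 (chr12:109681519-109681593, plus strand) had 2, 29 and 0 reads. Without Gm25854 the region's ratio in TuD-miR-122 was 12.8 (4.09 to 64.7), from 41 reads against 3. AF357341 supplied 29 of those 41 reads and 2 of those 3, so this ratio rests mainly on 1 gene. AF357341 reached the member minimum of 20 reads only through TuD-miR-122. Gm25854 likewise reached the 50 reads needed for a comparison only through that library. Both minima thus favoured genes high there, whereas the regional sum took all 7 genes with reads. The fragment of Gm25854 was internal, at bases 35 to 59 of 72, and that of AF357341 lay at the 3′ end; both held CTGA, in Gm25854 again 2 nt before the end.
Gm25854: atacatgatgactttgagtCTGAaa
AF357341: tgagaacagatgtCTGAggtca
miRNAs of the same region were also highest in that library: the 4 listed miRNA genes (Mir127, Mir136, Mir379 and Mir541) summed to 190 RPM in mock, 2657 with TuD-miR-122 and 360 with TuD-let-7. The pancreas miRNAs were 13.7-fold (11.7 to 16.2) higher in TuD-miR-122 than in mock, and the part of another tissue in the Dlk1-Dio3 snoRNAs was not tested. In the imprinted Snrpn region, known for brain-expressed snoRNAs, 4, 2 and 1 reads were found, from Snord64 and Snord107, and the Snord115 and Snord116 copies had 0 reads, which allows up to 0.869, 0.815 and 1.45 RPM.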

How the data were processed

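Per the labels' protocols, total RNA of liver was extracted with a miRNA isolation kit, small RNAs of 18 to 30 nt were taken from a gel, and 1 library per group was built and sequenced. The deposited files list distinct insert sequences with their raw read counts, not normalised. Adapter removal, filters and any aligner are not stated in the sources used here. Inserts of 18 to 30 nt were matched exactly (Python 3.11) to snoRNA and scaRNA transcripts of GENCODE M21 (GRCm38), and those matching 1 of 3207 miRNA precursor sequences (GENCODE and RefSeq) were set aside. Genes sharing over 50% of their reads were merged. The members and lists were chosen with earlier results of these data known.

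The libraries held 3450317 reads for mock, 3681585 for TuD-miR-122 and 2066892 for TuD-let-7. Counts were scaled to all reads. Ratios carry exact conditional-binomial and shares exact Clopper-Pearson 95% intervals (scipy 1.17.1), for counting error only, and no test between groups was made. The text names the 12 most abundant genes, up to 5 past 2-fold in each direction, the 3 most abundant of each box type, up to 4 members of each list and the most frequent insert of the 8 most abundant genes; other names are said to be chosen after their values were seen, or are host, threshold or list names. The matching and the 2-fold rule were tested on simulated data. Alternatives covered insert length, inserts read once, miRNA and other transcript matches, 3′ tails, scale, control library, read minimum, end window and gene weighting.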

Additional observations from a re-analysis of the deposited data

Results flagged for a closer look

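Reads that match a snoRNA or scaRNA but lie outside the definition used above were present in each library. Inserts that also match a miRNA precursor made up 4133 reads, 2086 in mock (605 RPM), 1369 with TuD-miR-122 (372 RPM) and 678 with TuD-let-7 (328 RPM). They came mainly from Mir1839, with 1923 reads, from Scarna3b, whose transcript holds Mir1843a, with 801, and from Mir3068, with 497; these loci are annotated both as sno- or scaRNA and as miRNA. Inserts of 15 to 17 nt that match a snoRNA made up 181 reads, 55 in mock (15.9 RPM), 110 with TuD-miR-122 (29.9 RPM) and 16 with TuD-let-7 (7.74 RPM). Both sums lie above the limit that a count of 0 allows, which is why they are listed. Such short inserts fall below the gel range that the labels state.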

How the results depend on the processing

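The total snoRNA level in TuD-miR-122, 0.854 of mock, was 0.829 with inserts that also match a miRNA precursor kept, 0.901 with inserts that match another transcript type left out, and 1.47 against TuD-let-7 as control, where the direction turned. For TuD-let-7, 0.580 of mock, the same removal gave 0.668, up to 3 unmatched 3′ bases gave 0.601, and TuD-miR-122 as control gave 0.679; scaled to miRNA reads from neither target it was 1.03, and the direction turned. The C/D share of 90.6% was 91.2% from 20 nt, 91.9% without inserts read once, 82.5% with miRNA matches kept, 77.2% without other transcript types, 90.1% with 3′ tails and 87.4% without Gm25789. It was 97.7% where CTGA in the last 15 nt alone made a gene C/D, a setting added after seeing the data, as was leaving out Gm25789 for the next 3 shares. The 3′ end share of 84.8% of C/D reads was, in the same order of settings, 85.4%, 86.4%, 84.2% (other types left out), 82.7% (tails) and 80.4% (without Gm25789), and 22.7% within 2 nt, 90.7% within 10 nt and 53.6% by equal weight. The share of 27 to 29 nt, 85.1%, was 86.0%, 87.3%, 79.8%, 84.0% and 80.2%, and 47.5% by equal weight. The share ending 2 nt after CTGA, 82.5%, was 83.1%, 84.4%, 71.5%, 77.7% and 77.2%, and 58.8% by equal weight. The count of 1 member higher in TuD-miR-122 was 2 against TuD-let-7, 2 from 20 reads and 0 from 100 reads, since Gm25854 has fewer. The count of 2 lower in TuD-let-7 was 0 without other transcript types, which removes reads within Snhg1 exons, and 0 on the scale of miRNA reads from neither target or of snoRNA-derived reads. Where no reason is given, the cause was not tested. With 1 library per group, no replicate could be left out. No paired analysis was possible because each group has 1 library. Depth limits the members under 50 reads, for which no ratio was counted.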

Other observations

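Allowing up to 3 unmatched bases at the 3′ end, 7.15% of snoRNA-derived reads in mock, 7.16% with TuD-miR-122 and 10.4% with TuD-let-7 carried such a tail. Tails of A alone were about equally frequent in the 3 libraries, at 3.83%, 3.93% and 4.01%, with overlapping intervals. Tails of other composition than A alone or T alone made up 2.78% (2.55 to 3.02), 2.66% (2.43 to 2.91) and 5.72% (5.19 to 6.29), highest in TuD-let-7. A tail is any 3′ end that does not match, base-call errors included.

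Reads on the opposite strand of a snoRNA numbered 42 in mock, 67 with TuD-miR-122 and 10 with TuD-let-7, against 18126, 16515 and 6297 on the same strand.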
